A study of Mus musculus with 11 samples.

Results

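Chemokines are small secreted proteins that direct the movement of leukocytes, and their receptors are G protein-coupled receptors on the cells that respond. The genes described here are the members of the CC, CXC, CX3C and XC chemokine families and their receptors, taken as every probe set with a single gene whose symbol starts with Ccl, Cxcl, Ccr, Cxcr, Cx3cl, Cx3cr, Xcl or Xcr and goes on with a digit. They comprised 66 probe sets of 49 genes, out of 12393 genes with a single-gene probe set on the array. A further probe set shared by the Ccl21 genes was left out because it names several genes.

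The samples were sympathetic ganglia of male C57BL mice aged 78 weeks and fed normal chow. Apoe-deficient mice (apoE-/-), which lack the lipid carrier apolipoprotein E and develop atherosclerosis, gave 6 arrays, and wild-type mice gave 5. Ganglia were taken from frozen tissue by laser capture, and the series title names crosstalk of the atherosclerotic vessel with peripheral nerves. The labels do not give the design of the Apoe allele and do not tie arrays to animals, so the p-values below measure only the spread among these arrays, part of which may be technical, and would be too small for arrays of a shared animal. In ganglia as a whole, more cells of a type and more RNA per cell cannot be told apart.

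Chemokines act as ligands that bind to proteoglycans on cell surfaces and signal through receptors coupled to Gi proteins. CC chemokines act chiefly on monocytes, macrophages, eosinophils and T cells. CXC chemokines include ligands for neutrophils, ligands induced by interferon and a pair of homeostatic ligands, Cxcl12 and Cxcl13. Cx3cl1 is made by neurons and endothelium. In peripheral ganglia, chemokines are known from macrophages and glia around the nerve cell bodies, above all after injury.

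The tissue label was checked first. The noradrenergic neuron genes Th and Dbh, which encode enzymes of noradrenaline synthesis, had signals of at least 9686 and 7993 in each of the 11 arrays. The lowest signal among the 6 measured genes of that list was 88.1, for Hand2. The satellite glia genes Fabp7, Sox10 and S100b had signals of at least 3563, 463 and 1115, and 3 further glial genes had no single-gene probe set. The Apoe signal was 7.2 to 268.2 in Apoe-deficient arrays and 11830.3 to 19649.2 in wild-type arrays. The signal of the hybridisation controls, RNAs added to every sample, had 3 levels. The low level held only Apoe-deficient arrays (replicates 2, 3 and 4). The middle level held 1 Apoe-deficient array (replicate 5) together with wild-type replicates 3, 4 and 5. The high level held Apoe-deficient arrays 1 and 6 together with wild-type arrays 1 and 2. For Ccl8, Ccl6, Ccl9 and Cxcl12 results are also given with this level taken into account. Results for the cell type markers and for most other genes are given without it and may depend on it.

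Of the 49 genes, 18 passed the filter on low signals and 31 did not. A probe set passed where its normalised value was above the 40th percentile of all values, equal to a signal of about 110, in at least 5 arrays. The files used here hold no detection call, so passing means a signal above that level and failing does not show that a gene was silent. The 18 genes were 8 of 18 CC chemokines, 5 of 12 CXC chemokines, Cx3cl1, 2 of 10 CC receptors and 2 of 5 CXC receptors. Ligands thus made up 14 of the 18. At the level of probe sets, 21 of 66 passed, 10 were above the level in all 11 arrays and 35 were above it in none.

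In Apoe-deficient ganglia 4 chemokine genes rose and none fell. Ccl8, Ccl6 and Ccl9 are CC chemokines made largely by macrophages, and Cxcl12 is the stromal ligand that retains leukocytes through Cxcr4. Their log2 differences were 1.93, 1.85, 1.22 and 1.25. Of these 4 genes only Ccl8 passed too when control level was a block in the fit, or without the 3 Apoe-deficient arrays of low control signal. The remaining 14 tested genes, among them all 4 tested receptors, did not pass the threshold of an adjusted p under 0.05 (limma, Benjamini-Hochberg over 8433 genes). Over all genes tested, 1.26% were called higher and 0.676% lower. The median log2 difference of the 18 genes was 0.31, beside -0.04 over all tested genes. A gene that passes the filter only through its high group had to differ, so these figures describe the tested genes and not all 49.

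**Figure D1:**
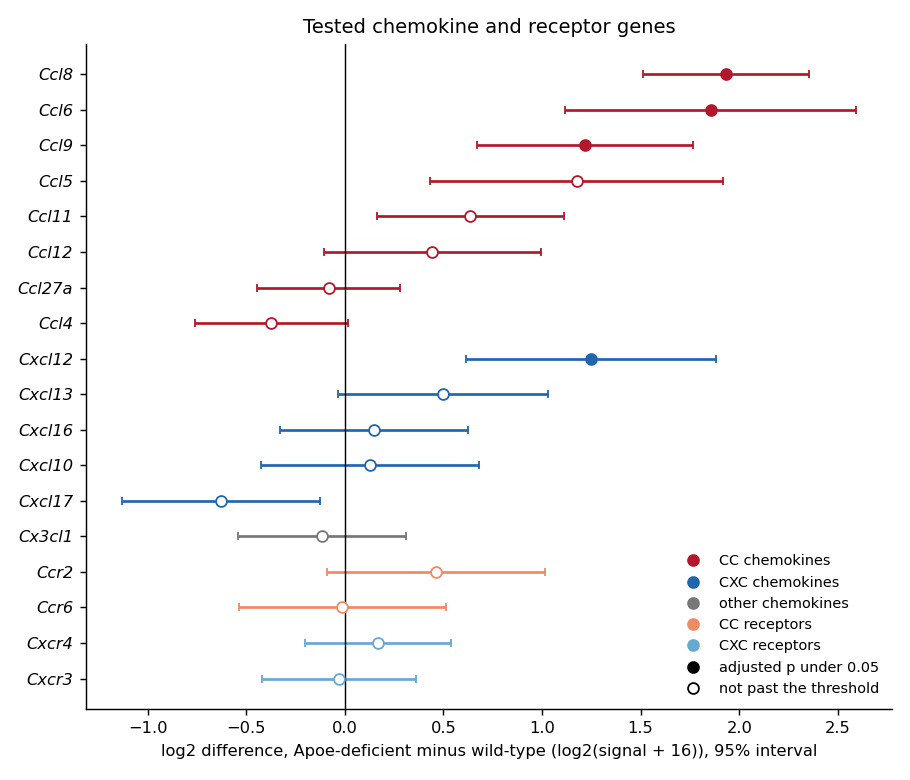
Log2 differences of the 18 tested genes, Apoe-deficient minus wild-type on the log2(signal + 16) scale, with 95% intervals, grouped and coloured by family. Filled points passed the threshold. Ccl8 (1.93), Ccl6 (1.85), Ccl9 (1.22) and Cxcl12 (1.25) are filled, and the intervals of Ccl5, Ccl11 and Cxcl17 leave out 0 although these genes did not pass after adjustment.

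The 3 called CC chemokine genes lie in 2 clusters on chromosome 11, Ccl8 in one and the neighbours Ccl9 and Ccl6 in the other, and the bases upstream of their starts are shown because these genes hold 3 of the 4 calls. In the RefSeq gene order Ccl2, Ccl7, Ccl11, Ccl12, Ccl8 and Ccl1 follow each other without another protein-coding gene between them, and so do Ccl5, Ccl9, Ccl6, Ccl3 and Ccl4. The sequences are the 250 bases before each annotated start in RefSeq (GRCm38.p6), 5′ to 3′ on the gene's strand. Ccl8 is at chr11:82114935-82115184 on the plus strand, Ccl6 at chr11:83593088-83593337 and Ccl9 at chr11:83578637-83578886, both on the minus strand. Capitals mark matches on either strand to 4 motifs. The letters searched were TATAAA for the TATA box core. Those for the PU.1 core were GAGGAA. Those for the Ets core were GGAAGT, and for AP-1 they were TGANTCA.
Ccl8: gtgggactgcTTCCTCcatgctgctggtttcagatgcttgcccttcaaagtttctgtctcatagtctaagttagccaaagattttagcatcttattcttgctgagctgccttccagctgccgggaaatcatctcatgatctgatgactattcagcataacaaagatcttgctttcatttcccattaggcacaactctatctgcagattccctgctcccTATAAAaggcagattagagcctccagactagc
Ccl6: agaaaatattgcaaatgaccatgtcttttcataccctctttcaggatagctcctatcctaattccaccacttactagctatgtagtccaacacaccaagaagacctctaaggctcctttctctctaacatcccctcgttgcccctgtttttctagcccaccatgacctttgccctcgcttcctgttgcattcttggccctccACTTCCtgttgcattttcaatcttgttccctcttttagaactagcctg
Ccl9: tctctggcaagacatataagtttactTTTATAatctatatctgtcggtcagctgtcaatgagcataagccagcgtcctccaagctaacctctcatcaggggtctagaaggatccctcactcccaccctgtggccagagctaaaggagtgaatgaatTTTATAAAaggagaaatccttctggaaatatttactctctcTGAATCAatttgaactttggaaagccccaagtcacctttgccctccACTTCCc

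In these windows the Ccl8 promoter held a TATA box core starting 32 bases before its start and a PU.1 core farther out. The Ccl6 window held an Ets core only. The Ccl9 window held that core and TATA box cores, of which a pair overlap on opposite strands. It also held TGAATCA, a match to the AP-1 letters searched, in which N stood for any base. The longest run shared by the Ccl6 and Ccl9 windows was 13 bases, gccctccacttcc, which contains the Ets core of both. Of all 32851 RefSeq promoter windows of the same length, 12.4% held the TATA box core, 23.3% the PU.1 core, 19.7% the Ets core and 6.75% the AP-1 motif. These matches are letters in a window and not measured binding sites. RefSeq windows were found for 36 of the 49 genes.

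Ccl8, a monocyte chemoattractant of the MCP group that in mice acts on Ccr8, showed the clearest difference. Its signal was 3130, 2468, 1752, 3418, 1568 and 2554 in Apoe-deficient replicates 1 to 6, against 782, 671, 508, 519 and 601 in wild-type replicates 1 to 5. Each Apoe-deficient array lay above each wild-type array. The means were 2482 ± 731 (SD, n = 6) and 616 ± 114 (SD, n = 5), and limma put the log2 difference at 1.93 (SE 0.20, adjusted p = 0.000228), a 3.82-fold rise. An exact permutation test (two-sided) gave p = 0.0022, the lowest value possible with 462 splits. Such tests were run here and below on the same arrays, for genes already called and without adjustment. They add no separate support. The Ccl8 difference was 1.96 between the arrays of the high control level (2 Apoe-deficient and 2 wild-type), 1.52 for the 1 Apoe-deficient array of the middle level against its 3 wild-type arrays, and 1.77 (SE 0.20, limma adjusted p = 0.0029) with the control level as a block.

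Ccl6, which in rodents attracts macrophages and other myeloid cells through Ccr1, gave 673, 557, 540, 799, 155 and 536 in Apoe-deficient replicates 1 to 6, against 114, 76.1, 197, 159 and 114 in wild-type replicates 1 to 5. Apoe-deficient replicate 5 lay inside the wild-type range, and the other 5 arrays lay above it. In log2 units the rise was 1.85 (SE 0.34, limma adjusted p = 0.0136, exact permutation p = 0.0087). Its wild-type signal was close to the filter level, with 6 of 6 Apoe-deficient and 2 of 5 wild-type arrays above it after normalisation. Ccl6 thus passed the filter through the Apoe-deficient arrays, and its tests are not independent of the filter. The Ccl6 call was lost with the control level as a block (limma adjusted p = 0.21). The other Ccl6 probe set, whose suffix (_s_at) marks probes that match several transcripts, gave 290, 289, 231, 431, 108 and 315 in Apoe-deficient arrays and 117, 57.0, 166, 132 and 119 in wild-type arrays. It has the same low array, and its difference of 1.11 did not pass (limma adjusted p = 0.086 over probe sets past the filter, of which 0.988% were called higher and 0.447% lower).

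Ccl9, a neighbour of Ccl6 on the chromosome and also a rodent ligand of Ccr1, gave 443, 409, 402, 880, 231 and 575 in Apoe-deficient replicates 1 to 6, against 158, 150, 252, 209 and 180 in wild-type replicates 1 to 5. Again Apoe-deficient replicate 5 was the one array that overlapped the wild-type range. The log2 rise was 1.22 (SE 0.26, limma adjusted p = 0.0254, exact permutation p = 0.0065). With 1 array left out at a time the difference was 1.04 to 1.41, and the call was lost on leaving out replicate 3 of the Apoe-deficient arrays or any of replicates 1, 2 and 5 of the wild-type arrays (limma adjusted p = 0.055 to 0.080). It was also lost with the control level as a block (limma adjusted p = 0.26). The other Ccl9 probe set had lower signals, 74.0 to 176 with a median of 112 in Apoe-deficient arrays and 17.7 to 57.2 with a median of 31.4 in wild-type arrays. There the groups did not overlap, as in 1.14% of all single-gene probe sets in that direction and 1.03% in the other. That probe set failed the filter, and over all 20380 single-gene probe sets without a filter it gave 1.39 (limma adjusted p = 0.027), where 0.55% were called higher and 0.216% lower.

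Cxcl12 gave a divided picture. On the probe set that represents the gene the signal was 831, 1536, 947, 1178, 877 and 3224 in Apoe-deficient replicates 1 to 6, against 371, 492, 725, 565 and 507 in wild-type replicates 1 to 5. The groups did not overlap, replicate 6 being far above the rest of its group. The log2 rise was 1.25 (SE 0.30, limma adjusted p = 0.0459, exact permutation p = 0.0022). A permutation p this low comes with groups that do not overlap, and it does not strengthen the call. Of all tested genes, 1.46% were apart in that direction and 1.51% in the other. Without 1 array at a time the difference was 0.97 to 1.36, and Cxcl12 was called only without Apoe-deficient replicate 1, 5 or 6 (limma adjusted p otherwise 0.051 to 0.13). The other Cxcl12 probe set, which passed the filter in all 11 arrays, had 603, 386, 295, 472, 374 and 769 in Apoe-deficient arrays against 673, 398, 345, 253 and 460 in wild-type arrays. Here the groups overlapped fully, and they differed by 0.18 in log2 units (limma adjusted p = 0.72). The mean of both probe sets gave 0.71 (limma adjusted p = 0.10), so the rise of Cxcl12 rests on 1 of its 2 probe sets. Probe sets of a gene read different stretches of its transcripts, and which transcripts each Cxcl12 probe set reads was not tested.

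**Figure D2:**
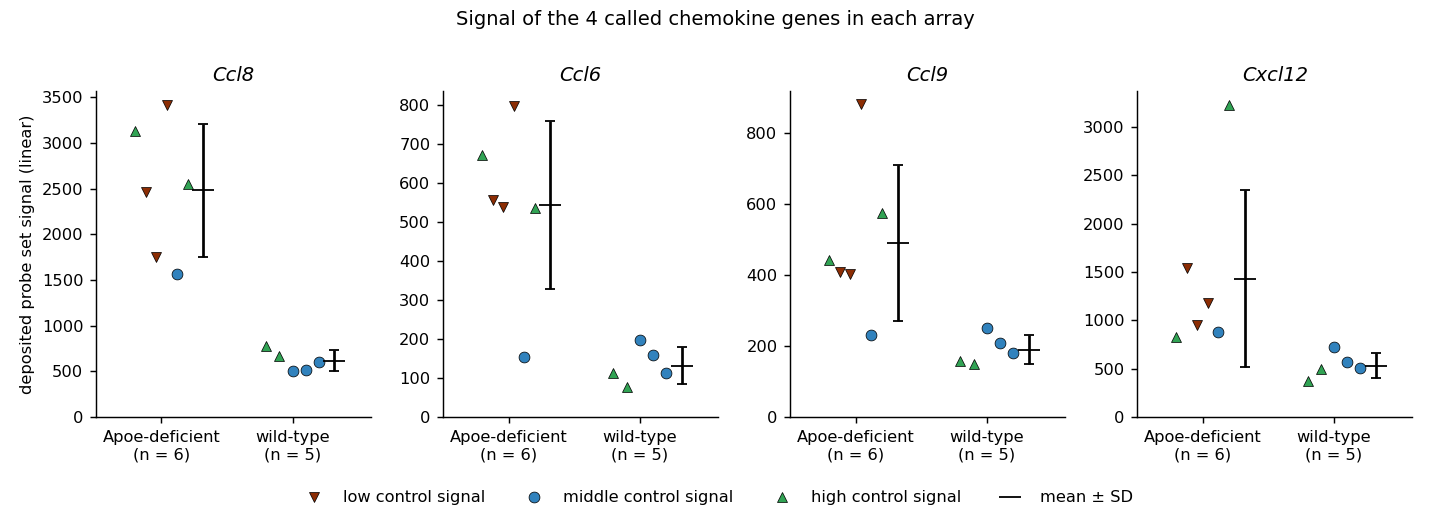
Deposited signal (linear axis from 0) of Ccl8, Ccl6, Ccl9 and Cxcl12 in each array, on the probe set that represents the gene, with group mean ± SD (n = 6 Apoe-deficient, n = 5 wild-type). Marker shapes give the level of the hybridisation controls. The groups are apart for Ccl8 and Cxcl12, and Apoe-deficient replicate 5 (155 for Ccl6, 231 for Ccl9) lies among the wild-type arrays for the others.

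The number of genes whose groups did not overlap was 2 of 18, Ccl8 and Cxcl12. Over all tested genes 1.46% were apart with higher Apoe-deficient values and 1.51% with lower ones. In the fit with the control level block, Ccl8 alone was called (0.427% of all genes were called higher and 0.107% lower in that fit), and Ccl6 gave 1.46, Ccl9 0.98 and Cxcl12 1.35 (limma adjusted p = 0.21). Without the 3 arrays of low control signal Ccl8 alone was called too, at 1.92 (limma adjusted p = 0.0049), beside 0.22% of all genes called higher and 0.0735% lower. Ccl6 then gave 1.51 (limma adjusted p = 0.25) and Cxcl12 1.35 (limma adjusted p = 0.25), and Ccl9 gave 1.002 (SE 0.27, limma adjusted p = 0.22). Ccl6 differed by 2.58 and Ccl9 by 1.66 within the high level, and by -0.03 and 0.09 for the lone Apoe-deficient array of the middle level, replicate 5.

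**Figure D3:**
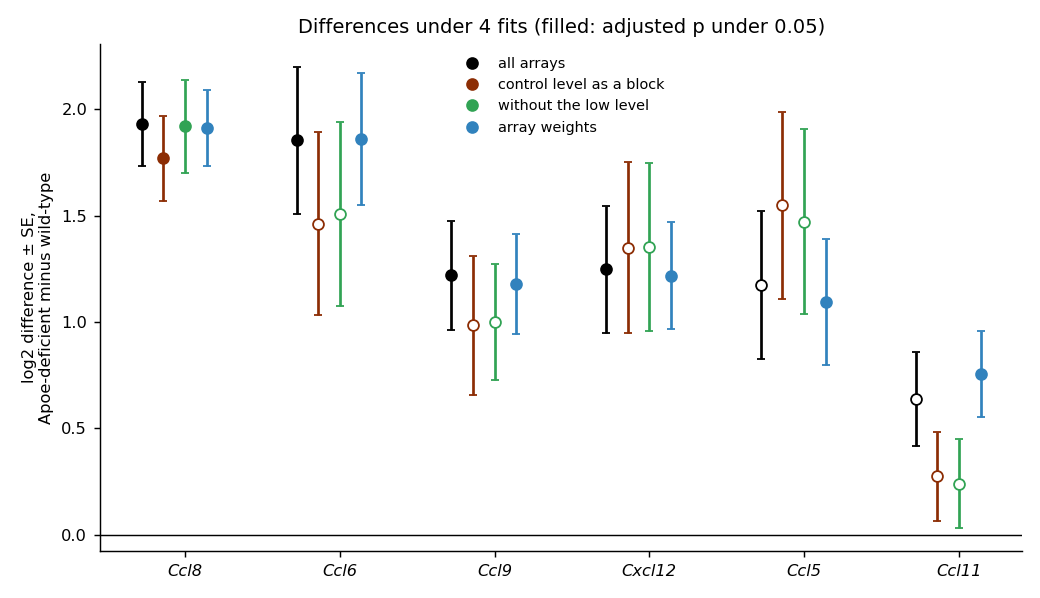
Log2 differences ± SE of 6 chemokine genes, Apoe-deficient minus wild-type, under 4 fits: all arrays, control level as a block, without the low control level, and array weights. Filled points passed the threshold in their fit. Ccl8 stays between 1.77 and 1.93 and is filled in all 4, while Ccl6, Ccl9 and Cxcl12 keep positive values and are open under the control level block and when its low level is left out.

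The other tested CC chemokines did not pass. Ccl5, a chemokine that attracts T cells and monocytes, had signals of 128, 197, 226, 322, 738 and 595 in Apoe-deficient replicates 1 to 6, against 178, 144, 156, 78.2 and 121 in wild-type replicates 1 to 5. Replicates 5 and 6 were the high ones, and replicate 1 lay within the wild-type range. Its log2 difference was 1.17 (95% interval 0.43 to 1.92, limma adjusted p = 0.097), and with 1 array left out at a time Ccl5 was called once, without Apoe-deficient replicate 1 (1.39, limma adjusted p = 0.031). With array weights Ccl5 was called as well, at 1.09 (limma adjusted p = 0.040). Apoe-deficient replicate 5, the lowest of its group for Ccl8, Ccl6 and Ccl9, was the highest for Ccl5.

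Ccl11, the eosinophil attractant eotaxin, had 585, 713, 918, 800, 431 and 366 in Apoe-deficient arrays, against 345, 332, 352, 552 and 344 in wild-type arrays. The 3 arrays of low control signal were its 3 highest. The difference was 0.64 (95% interval 0.16 to 1.11, limma adjusted p = 0.14), and it was 0.27 with the control level as a block. Ccl12, a mouse monocyte chemoattractant next to Ccl8 on the chromosome, had 100.2 to 347 in Apoe-deficient arrays and 98.3 to 159 in wild-type arrays, and differed by 0.44 (95% interval -0.10 to 0.99). Ccl4, a chemokine made by activated macrophages and lymphocytes, had 146 to 296 in Apoe-deficient arrays and 267 to 493 in wild-type arrays, and differed by -0.37 (-0.76 to 0.01). The epithelial chemokine gene Ccl27a had 183 to 298 in Apoe-deficient arrays and 172 to 331 in wild-type arrays, and differed by -0.08 (-0.45 to 0.28). Groups overlapped in all 3 genes. The Ccl27a probe set carries the suffix _x_at, which marks probes that may also match other sequences. Within each chromosome 11 cluster, the values of the tested members were 1.93, 0.64 and 0.44 for Ccl8, Ccl11 and Ccl12, and 1.22, 1.85, 1.17 and -0.37 for Ccl9, Ccl6, Ccl5 and Ccl4. The 95% intervals of Ccl9 (0.67 to 1.77), Ccl6 (1.12 to 2.59) and Ccl5 (0.43 to 1.92) overlapped, and Ccl4 had the opposite sign.

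Among the CXC chemokines, Cxcl13, the B cell attractant of lymphoid follicles, also had probe sets that disagreed. The probe set of highest mean gave 159 to 483 in Apoe-deficient arrays and 145 to 263 in wild-type arrays, and its log2 difference was 0.50 (95% interval -0.04 to 1.03, limma adjusted p = 0.28). The other, past the filter as well, had 309, 397, 231, 469, 148 and 730 in Apoe-deficient arrays, against 81.2, 97.6, 125, 139 and 109 in wild-type arrays. The signals did not overlap, although the quantile normalised values did, and the lowest Apoe-deficient array was again replicate 5. Tested on its own over the 12757 probe sets past the filter, of which 0.988% were called higher, this probe set rose by 1.55 on the log2 scale (limma adjusted p = 0.026). With 6 Apoe-deficient and 2 wild-type arrays above the filter level, it passed the filter through the Apoe-deficient arrays. That test is therefore not independent of the filter.

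Cxcl16, a membrane-bound ligand of Cxcr6 that also acts as a scavenger receptor, had a pair of probe sets that differed more. The one that passed the filter gave 123 to 301 in Apoe-deficient arrays and 114 to 236 in wild-type arrays, and its log2 difference was 0.15 (95% interval -0.33 to 0.63). The other gave 41.3, 49.1, 55.5, 94.5, 63.1 and 85.9 in Apoe-deficient arrays, against 4.2, 2.5, 2.9, 8.9 and 5.2 in wild-type arrays. The groups were far apart there, but no array was above the filter level, so the size of the change is uncertain. It was called without a filter, at 1.98 (limma adjusted p = 0.00026 over all single-gene probe sets), and its suffix _s_at marks probes that match several transcripts.

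The remaining CXC and CX3C ligands did not pass. Cxcl10, which interferon induces, had 95.7 to 196 in Apoe-deficient arrays and 87.1 to 212 in wild-type arrays, and differed by 0.13 (95% interval -0.42 to 0.68). Cxcl17, a mucosal chemokine gene, was the member with the most negative value, with signals of 95.8 to 248 (median 159) in Apoe-deficient arrays and 154 to 361 (median 254) in wild-type arrays and a difference of -0.63 (95% interval -1.13 to -0.12, limma adjusted p = 0.16). Cx3cl1, the membrane-bound neuronal chemokine fractalkine, had 87.3 to 220.1 in Apoe-deficient arrays and 119 to 245 in wild-type arrays, and differed by -0.12 (95% interval -0.54 to 0.31).

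**Figure D4:**
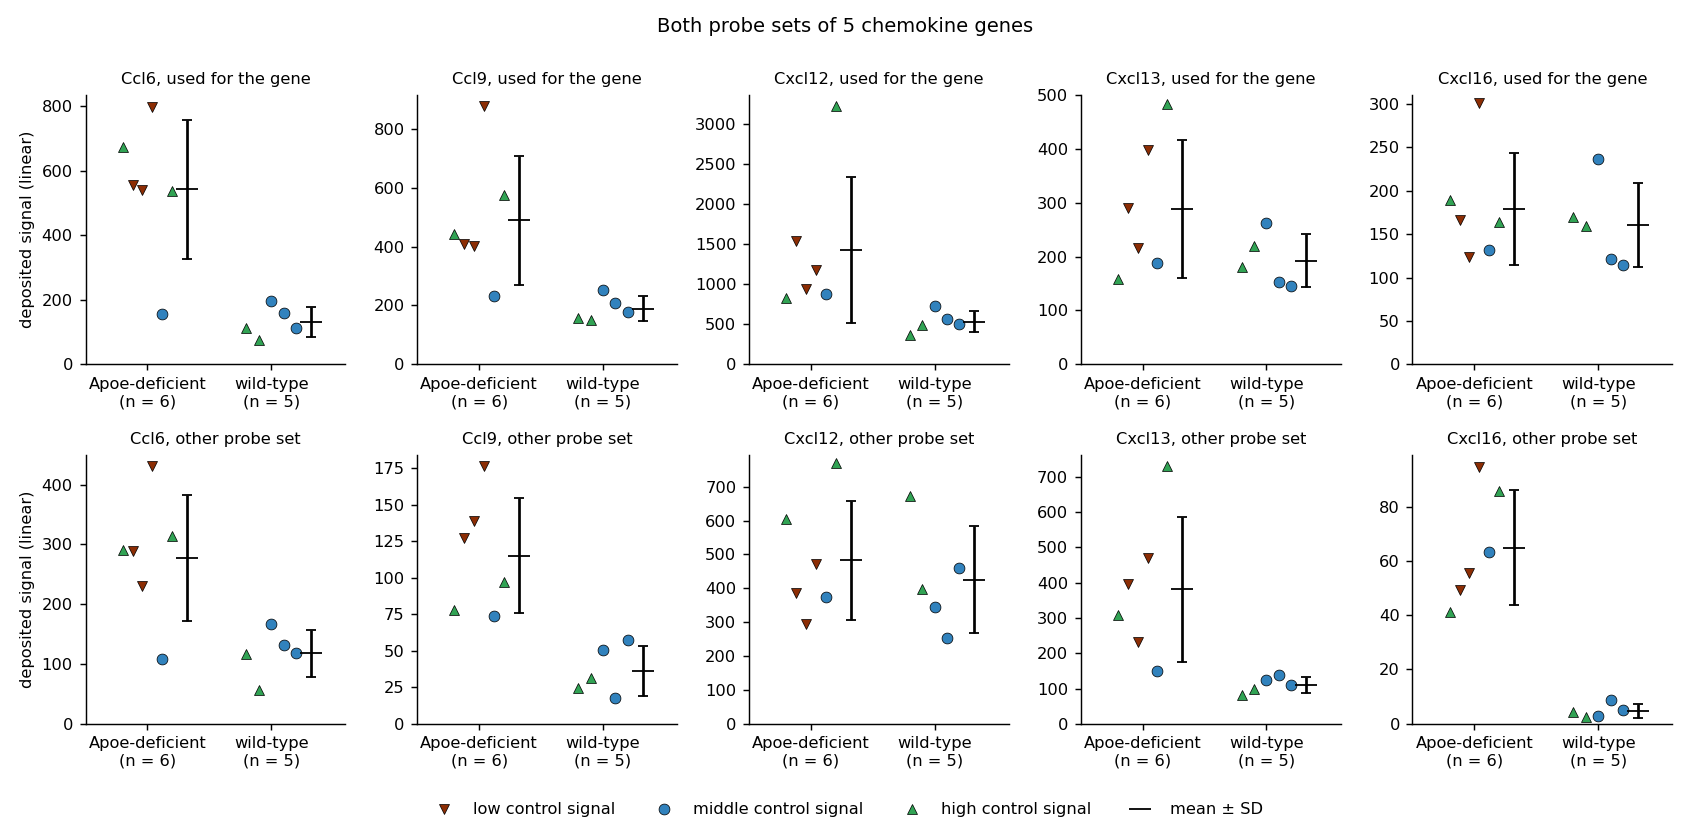
Deposited signal (linear axes from 0) of both probe sets of Ccl6, Ccl9, Cxcl12, Cxcl13 and Cxcl16 in each array, with group mean ± SD (n = 6 Apoe-deficient, n = 5 wild-type). The upper row holds the probe set that represents the gene, and marker shapes give the control level. For Cxcl12 the lower panel shows overlapping groups (log2 difference 0.18), and for Cxcl13 and Cxcl16 the lower panels show the larger differences (1.55 and 1.98).

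The tested receptors were fewer than the ligands, and none passed the threshold. Cxcr4, the receptor of Cxcl12, had 839 to 1495 (median 1213) in Apoe-deficient arrays and 740 to 1235 (median 1185) in wild-type arrays, and its log2 difference was 0.17 (95% interval -0.20 to 0.54, limma adjusted p = 0.61). A rise of Cxcr4 as large as the 1.25 of the Cxcl12 probe set that represents the gene lies outside that interval. The 0.18 of the other Cxcl12 probe set lies inside it. Ccr2, which draws monocytes out of the blood towards Ccl2, had 90.9 to 232 in Apoe-deficient arrays and 52.0 to 146 in wild-type arrays, and differed by 0.46 (95% interval -0.09 to 1.02, limma adjusted p = 0.32). Its other probe sets, both below the filter, gave 0.87 and 0.11 without passing (limma adjusted p = 0.26 and 0.84 without a filter). Cxcr3, the receptor of the interferon-induced ligands, had 121 to 220.1 in Apoe-deficient arrays and 119 to 238 in wild-type arrays, and differed by -0.03 (95% interval -0.42 to 0.36). Ccr6, a lymphocyte receptor, had 60.6 to 261 in Apoe-deficient arrays and 109 to 147 in wild-type arrays, and differed by -0.01 (-0.54 to 0.51). The Ccr6 signals were more spread in Apoe-deficient arrays, on both sides of the wild-type range.

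The receptors of the CC chemokines that rose were below the filter, unlike Cxcr4. Ccr8, the mouse receptor of Ccl8, had signals of 8.0 to 37.8 in Apoe-deficient arrays and 6.7 to 54.4 in wild-type arrays. Ccr1, the receptor of Ccl6 and Ccl9, had 11.5 to 106.8 in Apoe-deficient arrays and 1.3 to 104.2 in wild-type arrays over its probe sets, and none of its normalised values was above the filter level. Cxcr5, the receptor of Cxcl13, was below the filter too and had 32.6 to 90.9 in Apoe-deficient arrays and 54.0 to 96.0 in wild-type arrays. In each of these genes the groups overlapped. Cx3cr1, the fractalkine receptor of resident macrophages, had 4.0 to 99.0 in Apoe-deficient arrays and 5.5 to 100.1 in wild-type arrays.

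Of the 31 genes below the filter, 23 were above the filter level in no array once normalised, and their deposited signals lay between 1.8 and 106.8 in Apoe-deficient arrays and between 1.3 and 115.8 in wild-type arrays. These were the CC chemokine genes Ccl3, Ccl7, Ccl20, Ccl22, Ccl24, Ccl25 and Ccl28, the CXC chemokine genes Cxcl1, Cxcl2, Cxcl5, Cxcl11, Cxcl14 and Cxcl15, the gene Xcl1, and the receptor genes Ccr1, Ccr3, Ccr7, Ccr8, Ccr9, Cxcr2, Cxcr5, Cx3cr1 and Xcr1. The neutrophil attractants Cxcl1, Cxcl2 and Cxcl5 were all in this set, as was their receptor Cxcr2. The other 8 genes were above the level in 1 to 4 arrays: Ccl1, Ccl2, Ccl17, Cxcl9, Ccr4, Ccr10, Ccr1l1 and Cxcr6. Ccl2, the main monocyte attractant, had 66.9 to 154.7 in Apoe-deficient arrays and 69.2 to 135.7 in wild-type arrays.

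Without a filter, 0 of the 39 probe sets of these 31 genes were called by limma, where 0.55% of all single-gene probe sets were called higher and 0.216% lower. An unadjusted p under 0.05 was reached by 4 of the 39, and by 16.2% of all single-gene probe sets. The 4 were those of Ccl7 (log2 difference 0.86), Cxcl9 (1.01), 1 of 2 of Cxcl11 (0.61) and 1 of 2 of Cxcr6 (0.88). Ccl7, a monocyte attractant of the Ccl8 cluster, had 65.8, 20.0, 55.7, 85.6, 52.1 and 71.3 in Apoe-deficient arrays, against 25.8, 24.5, 14, 35.6 and 24.5 in wild-type arrays. All but replicate 2 of the Apoe-deficient arrays lay above the wild-type range, at signals below the filter level (limma adjusted p = 0.15).

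Genes that act with chemokines were taken from a list of 53: atypical receptors and ligands with other names, proteases and proteoglycans that process or present chemokines, and signalling proteins behind the receptors. Of these 39 were tested, 2 rose and 1 fell, where over all genes 1.26% were called higher and 0.676% lower. Rgs2, a regulator that shortens G protein signals, rose by 1.41 (SE 0.31, limma adjusted p = 0.028). Dock2, the leukocyte activator of Rac that chemokine receptors use in migration, rose by 1.38 (SE 0.32, limma adjusted p = 0.039). Its signal was 107 to 264 in Apoe-deficient arrays and 17.5 to 117 in wild-type arrays, and with 6 Apoe-deficient and 1 wild-type array above the filter level it passed the filter through the Apoe-deficient arrays. Gnb1, a beta subunit of G proteins, fell by 0.46 (SE 0.11, limma adjusted p = 0.039). Under the control level block, or without the 3 low arrays, none of them was called.

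The other genes of that list did not pass. Sdc2, a heparan sulfate proteoglycan, differed by 0.98 (limma adjusted p = 0.051), the Dock2 partner gene Elmo1 by -0.45 and the matrix protease gene Mmp2 by -0.47. The atypical receptor and related genes Ackr1, Ackr2, Ackr3, Ccrl2, Rarres2 and Pf4 differed by -0.16 to 0.28. Ackr3, the scavenging receptor of Cxcl12, was at 0.15.

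Markers of some leukocyte types, but not of all, were called in the same fit. Of 14 tested macrophage markers 9 rose and 0 fell, where over all tested genes 1.26% were called higher and 0.676% lower. Those not called were Adgre1 (0.07), Cd14 (0.02), Cd163 (0.90), Aif1 (0.75) and Fcer1g (0.61), and Itgam was below the filter. The summed signal of the 15 markers was 10815 to 15842 in Apoe-deficient arrays and 6718 to 8354 in wild-type arrays. Its lowest Apoe-deficient array was replicate 5 and its highest replicate 4, as for Ccl8, Ccl6 and Ccl9. Replicate 5 was also the lowest Apoe-deficient array for the mast cell, fibroblast, endothelial and white adipocyte sums. Mast cell markers rose in 4 of 6 tested genes, with sums of 1870 to 5277 in Apoe-deficient arrays and 798 to 1922 in wild-type arrays. Kit (0.02) and Fcer1a (1.01) did not pass, and Ms4a2 was below the filter. The called genes Tpsb2 and Mcpt4 had lowest signals of 6.7 and 8.7, far below the filter level. Whether they passed the filter only through the Apoe-deficient arrays was not tested. B and plasma cell markers rose in 2 of 5, with sums of 16100 to 74799 in Apoe-deficient arrays and 5526 to 21631 in wild-type arrays. The called genes were the antibody genes Jchain and Ighm, whose highest signals were 26861 and 37029. Pou2af1 (1.94), Ms4a1 (0.39) and Xbp1 (0.25) did not pass, and Cd79a and Cd79b were below the filter.

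Of the T and NK cell markers only Nkg7 was tested, at 0.56 without passing, and the sums of 7 genes were 399 to 989 in Apoe-deficient arrays and 234 to 669 in wild-type arrays. Apoe-deficient replicate 5 was the highest there, as for Ccl5. Wild-type replicate 1 (669) lay above all other Apoe-deficient arrays, and of the 7 genes summed only Nkg7 passed the filter. Fibroblast markers rose in 1 of 7 genes, Postn, with sums of 11748 to 17795 in Apoe-deficient arrays and 8685 to 13087 in wild-type arrays. Over all tested genes 1.26% were called higher and 0.676% lower. At such shares a count of 0 in the short lists that follow says little about a cell type. Of endothelial markers 0 of 7 tested were called by limma, with sums of 1300 to 2262 in Apoe-deficient arrays and 1312 to 2084 in wild-type arrays. Of neutrophil markers 0 of 2 tested were called, with sums of 320 to 535 in Apoe-deficient arrays and 459 to 701 in wild-type arrays. The summed noradrenergic neuron markers were 31823, 31167 and 35126 in the 3 Apoe-deficient arrays of low control signal, 48993 to 54661 in the other Apoe-deficient arrays and 42952 to 60786 in wild-type arrays. The 3 arrays of low control signal were thus the lowest of all for these markers, and they were the highest for Ccl11. White adipocyte markers summed to 3261 to 24989 in Apoe-deficient arrays and 10061 to 31512 in wild-type arrays, and 0 of 3 tested were called by limma. No marker with a probe set was at 0 in any of these lists. The part of these cell types in the chemokine differences was not tested.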

How the data were processed

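The members, lists and tests were chosen with earlier results of these data known. The deposited values are probe set intensity values on a linear scale that the authors made with GCOS 1.4, as the submitters' processing notes state. How that program computed them is not stated there. Trimmed means of about 500.2 in every array show that the authors had scaled the arrays. Gene symbols come from the platform annotation, and RefSeq (GRCm38.p6) gave gene order and promoter sequences only.

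The 64 control probe sets were removed. Intensities were taken to log2(signal + 16), which understates changes of low genes, and quantile normalised. Probe sets above the 40th percentile in at least 5 arrays were kept, and a gene with several took the one whose mean was highest. The test was limma 3.58.1 (R 4.3.3) over 8433 genes (intensity trend, two-sided, Benjamini-Hochberg over all genes, threshold 0.05) and the script was tested on simulated data. The 4 called members were also tested by exact two-sided permutation of the same arrays, without adjustment. Control levels were split at the 2 largest gaps of the mean log2 signal of 18 hybridisation control probe sets. All tested members were named, genes below the filter by their signal range, and of the pathway list the called genes and the 3 of smallest p in each direction. Genes with no single-gene probe set were not analysed here. The number of arrays limits the precision. Figures were drawn with matplotlib 3.10.9.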

Additional observations from a re-analysis of the deposited data

Results flagged for a closer look

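In 3 of 46 sets of log2 values, 1 array stood apart from the others of its group by Dixon's criterion at the 95% level, which chance alone meets in about 1 of 20 groups. Ccl6 in Apoe-deficient replicate 5 had a log2 value of 7.37, and the next of its group had 9.10. Ccl11 in wild-type replicate 4 had 9.18, and the next below it 8.49. Ccl4 in wild-type replicate 3 had 8.97, and the next below it 8.37.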

How the results depend on the processing

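The count of chemokine and receptor genes called higher, 4, was 2 to 5 when each array was left out in turn, and the count of 2 came on leaving out Apoe-deficient array 3 or any of wild-type arrays 1, 2 and 5. It was 1 with the control level as a block, without the low control level and with the high control level only, and 3 to 6 under the other settings, the probe sets tested singly without a filter being a setting chosen after seeing the data. The count called lower was 0 under each setting run. Ccl8 was called under each setting that gave it a value, at 1.77 to 1.96, and at 1.83 to 2.05 without 1 array. Ccl6 was at 1.70 to 2.18 without 1 array and called each time. Cxcl12 was also not called without a filter (limma adjusted p = 0.069), without an intensity trend (0.061) or with robust estimation (0.063). Array weights added Ccl11 (0.76) and Ccl5 (1.09), where 668 genes in all were called instead of 163. The cause of these changes was not tested.

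Same-numbered arrays of the groups had correlations of deviations of -0.18 to 0.15. Arrays of unlike numbers were not compared, so these values cannot decide whether the numbers pair the arrays. With the replicate block the 4 genes kept their calls (Cxcl12 at 0.97), Ccl11 was added (0.78, limma adjusted p = 0.038), and 4 pathway genes were called higher and 0 lower.

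Of the pathway list, 2 genes were called higher and 1 lower. Without 1 array the counts were 0 to 3 higher and 0 to 2 lower. With the deposited scaling and no step between arrays they were 1 and 0, and with every probe set on its own and no filter also 1 and 0. Under the control level as a block, without the low control level and with the high control level only they were 0 and 0. The count called lower was also 0 with no filter, the mean of probe sets and no trend, and 2 with every probe set past the filter.

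Signs turned only for genes near 0. Ccr6 gave 0.0076 with pseudocount 64, 0.0074 without the low control level, 0.035 with array weights, 0.029 with the replicate block and 0.15 under the control level block. Cx3cl1 gave 0.12 under the control level block, 0.10 without the low level, 0.28 with the high level only and 0.10 on 1 of its other probe sets, while the remaining one gave -0.22. Under that block Cxcl16 gave -0.040, Cxcl10 -0.17 and Cxcr3 0.074, and Cxcr3 gave 0.15 without the low level. Without 1 array, Cx3cl1 was at -0.20 to 0.012, Cxcl16 at -0.0030 to 0.29, Ccl27a at -0.19 to 0.034, Cxcr3 at -0.17 to 0.077 and Ccr6 at -0.21 to 0.13.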
